A study of Mus musculus with 6 samples.

Results

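The replication-dependent histone genes were described in ATAC-seq data from 3 mouse cell lines. They were taken as every gene of the mm9 annotation whose symbol begins with Hist1h, Hist2h, Hist3h or Hist4h, which gave 70 of 37310 annotated genes, and a gene was counted as having a peak when a called peak lay within 500 bp of one of its annotated transcription start sites. Of the 70 genes, 67 were annotated as protein-coding and 3 as pseudogenes (*Hist2h3c2*, *Hist3h2bb-ps* and *Hist1h2aj*). They fell into *Hist1* on chromosome 13 (56 genes), *Hist2* on chromosome 3 (10 genes), *Hist3* on chromosome 11 (3 genes) and the single gene *Hist4h4* on chromosome 6. By the class of histone in the symbol, pseudogenes included, 6 belong to linker histone H1, 20 to H2A, 19 to H2B, 12 to H3 and 13 to H4.

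Replication-dependent histone genes are transcribed mainly in S phase, when newly copied DNA has to be packed into nucleosomes. They have no introns, and their mRNAs end in a stem-loop in place of a poly(A) tail. Many H2A and H2B genes stand head to head and share the short DNA between them as a promoter, so that accessible DNA there serves a pair of genes. Transcription depends on NPAT, which gathers at the clusters, and on factors that read short promoter elements, such as NF-Y at the CCAAT box, OCT1 at the octamer of H2B genes and HINFP at H4 genes.

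The cell lines were β-TC3, an insulinoma line called Pax6-HIGH, MV+, which comes from lens epithelium and is called Pax6-ON, and RAG, a renal adenocarcinoma line called Pax6-OFF, none of them given any treatment beyond culture in the same medium. Each was assayed in 2 replicates from 50000 nuclei, with libraries amplified for 11 cycles and sequenced as 75 bp pairs. The buffer that released the nuclei held the detergent NP40 at 0.2% for MV+ and at 0.1% for β-TC3 and RAG, so its effect and that of the line cannot be told apart. Both replicates of a line entered 1 peak call, so no value below has a replicate error, no difference between lines could be tested, and the counts and ranks are descriptions of 3 pooled libraries.

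The calls rested on 100254099 fragments and gave 28024 peaks in Pax6-HIGH cells, on 130955836 fragments and 9821 peaks in Pax6-ON cells, and on 102223606 fragments and 14022 peaks in Pax6-OFF cells. A peak's pileup is the number of fragments over its summit, and the lowest pileup called was 25 in Pax6-HIGH cells, 30 in Pax6-ON cells and 25 in Pax6-OFF cells, so that a gene without a peak is one where no site passed the caller, not one shown to be closed. At the 3837 other protein-coding genes called in all lines, the median pileup was 122, 67 and 74, or 4.88, 2.23 and 2.96 times the lowest called pileup in Pax6-HIGH, Pax6-ON and Pax6-OFF cells. Pax6-ON calls therefore reached the least far down the range of signal. The labels were checked against start sites of marker genes. Pax6-HIGH cells had peaks at 5 of 8 beta cell genes, among them *Nkx6-1*, *Neurod1* and *Isl1*, but none at *Ins1*, *Ins2* or *Pdx1*. Of these, *Isl1*, *Nkx6-1* and *Mafa* were also called in Pax6-ON cells and *Mafa* in Pax6-OFF cells. Pax6-ON cells had peaks at *Pax6*, *Maf* and *Prox1* of 7 lens genes but none at the crystallin genes *Cryaa* and *Cryab* or at *Foxe3* and *Six3*. The same 3 genes were called in Pax6-HIGH cells at higher percentiles (65.3 against 14.1 at *Maf*, 56.9 against 1.68 at *Prox1*), and *Maf* and *Cryab* were called in Pax6-OFF cells, so the lens genes do not set Pax6-ON cells apart. Of 6 renal genes, *Pax2* and *Cdh16* were called in Pax6-OFF cells and none in the other lines.

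Histone genes had peaks most often in Pax6-HIGH cells and least often in Pax6-ON cells. In Pax6-HIGH cells, 55 of the 70 genes (78.6%) had a peak, against 45.4% of the 22367 nuclear protein-coding genes. In Pax6-OFF cells 32 genes (45.7%) had a peak against 35.4%, and in Pax6-ON cells 7 genes (10.0%) against 21.0%. The histone share was above the background in Pax6-HIGH and Pax6-OFF cells and below it in Pax6-ON cells. The 83 genes of cytosolic ribosomal proteins, which are also small and highly transcribed, had peaks at 77.1% in Pax6-HIGH cells, 13.3% in Pax6-ON cells and 50.6% in Pax6-OFF cells. With all peaks as called, the order of the lines and the size of the shares were thus alike in both groups of genes.

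The gap between Pax6-HIGH and Pax6-OFF cells depended on how many peaks each line had. When the same number of peaks was taken from each line, the 9821 with the smallest q-values, 27 histone genes (38.6%) were called in Pax6-HIGH cells, 7 (10.0%) in Pax6-ON cells and 25 (35.7%) in Pax6-OFF cells, against 27.6%, 21.0% and 30.2% of the other protein-coding genes. Pax6-HIGH and Pax6-OFF cells then differed by 2 histone genes, on 18 and 20 distinct peaks, while the count in Pax6-ON cells stayed below both. Under the same rule the ribosomal protein genes stood at 30.1%, 13.3% and 33.7% in Pax6-HIGH, Pax6-ON and Pax6-OFF cells. Their share was thus higher in Pax6-OFF than in Pax6-HIGH cells, unlike that of the histone genes. The lowest pileup kept was 63, 30 and 39 in Pax6-HIGH, Pax6-ON and Pax6-OFF cells.

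**Figure D1:**
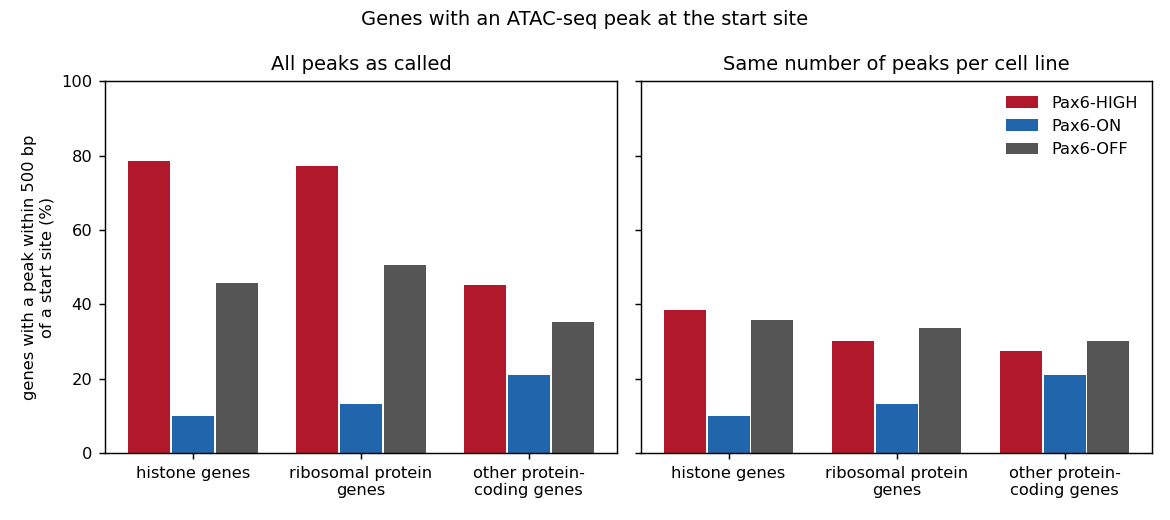
Share of genes with an ATAC-seq peak within 500 bp of a start site (vertical axis, percent) for the 70 histone genes, 83 ribosomal protein genes and 22300 other protein-coding genes in each cell line, with all peaks (left) and with 9821 peaks per line (right); bars are single pooled calls and carry no error. The histone bars stand at 78.6%, 10.0% and 45.7% on the left and at 38.6%, 10.0% and 35.7% on the right for Pax6-HIGH, Pax6-ON and Pax6-OFF.

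Most of the histone genes called in Pax6-OFF cells were also called in Pax6-HIGH cells, and few were called in Pax6-ON cells. Of the 32 histone genes with a Pax6-OFF peak, 31 had a Pax6-HIGH peak. So did 7263 of the 7923 protein-coding genes with a Pax6-OFF peak, so this overlap was high among coding genes in general. Only 5 genes had a peak in all 3 lines, where 17.2% of protein-coding genes did, and 14 had none in any line, where 50.6% of protein-coding genes had none. Of the 55 genes with a Pax6-HIGH peak, 31 also had a Pax6-OFF peak and 7 a Pax6-ON peak. The background shares were 71.5% and 42.8% of the protein-coding genes with a Pax6-HIGH peak. The 5 genes called in all lines were the divergent pair *Hist1h2ah*/*Hist1h2bk*, the H3 genes *Hist2h3c1* and *Hist2h3c2*, and *Hist4h4*. A further 26 genes had peaks in Pax6-HIGH and Pax6-OFF cells, 22 in Pax6-HIGH cells alone, the pair *Hist1h2ak*/*Hist1h2bn* in Pax6-HIGH and Pax6-ON cells, and *Hist1h4i* in Pax6-OFF cells alone.

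Because neighbouring genes share DNA, these genes rested on fewer peaks. The 55 genes in Pax6-HIGH cells had 39 distinct peaks, of which 17 covered more than 1 histone gene. The 32 genes in Pax6-OFF cells had 27 peaks (7 over more than 1 gene), and the 7 genes in Pax6-ON cells had 5 (2 over more than 1 gene). Genes under 1 peak are not independent observations.

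Ranked within its own cell line, the median histone peak stood below the median peak at a coding gene, by a margin that differed between lines. A peak's percentile is the percentage of all peaks of the same line with a lower pileup, ties counted at their mean. The median percentile of the distinct histone peaks was 64.5 in Pax6-HIGH cells, 10.6 in Pax6-ON cells and 40.1 in Pax6-OFF cells, against 70.8, 54.7 and 59.3 for peaks at protein-coding genes. In pileup, the histone peaks had medians of 69 (range 36 to 208), 40 (35 to 92) and 45 (29 to 99). In all, 29 of 39 peaks in Pax6-HIGH cells, 1 of 5 in Pax6-ON cells and 11 of 27 in Pax6-OFF cells were in the upper part of their line's ranking, above the 50th percentile. The Pax6-HIGH peaks were long, with a median of 892 bp against 723 bp at coding genes, while those of Pax6-ON (405 against 457 bp) and Pax6-OFF cells (538 against 551 bp) were not. The median fold enrichment over the local background was 4.40, 2.70 and 3.54, below the 4.86, 4.28 and 4.47 of coding genes in each line. In Pax6-HIGH cells 21 of the 39 histone peaks had a local background above that of the whole genome, as did 0 of 5 in Pax6-ON and 15 of 27 in Pax6-OFF cells. Fold enrichment is measured against that local background.

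**Figure D2:**
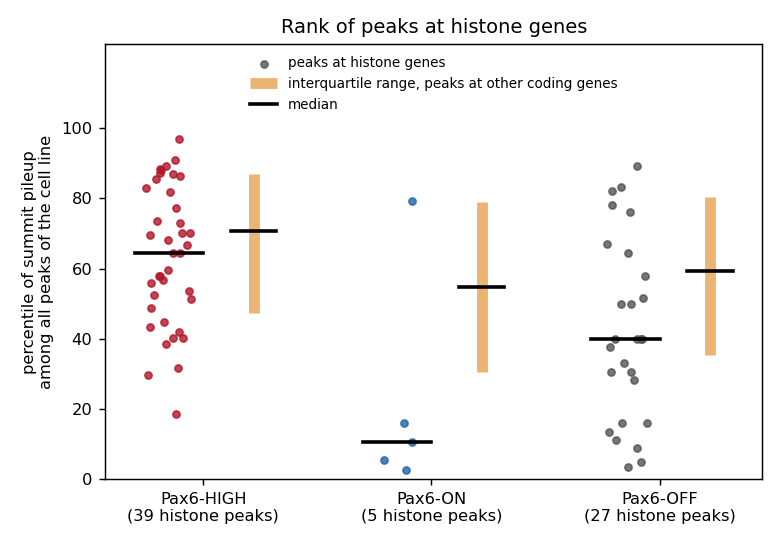
Percentile of summit pileup among all peaks of the same cell line (vertical axis) for each distinct peak at a histone gene (points; 39, 5 and 27 peaks), with the histone median (long black line) beside the median (short black line) and interquartile range (orange bar) of peaks at other coding genes. The histone medians of 64.5, 10.6 and 40.1 lie below the coding medians of 70.8, 54.7 and 59.3, and 4 of the 5 Pax6-ON points lie under the 20th percentile.

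The promoters are shown for the best ranked divergent pair, the best ranked single H1 gene, the best ranked single H4 gene and a pair without a peak. A pair called in all lines and a pair related in sequence to the pair without a peak were added after their values were seen. The pairs are the whole interval between the start sites on the plus strand, and the single genes are the 250 bases before the start on the gene's strand. All lie outside the annotated transcripts, with coordinates on mm9. Capitals mark matches on either strand. The TATA box was searched as TATAAA. The box that NF-Y binds was searched as CCAAT. For the octamer of H2B genes the letters were ATTTGCAT, for the H1 box of linker histone genes they were AAACACA, and for the core of the HINFP site of H4 genes they were CGGACC.
Hist1h2ac/Hist1h2bc: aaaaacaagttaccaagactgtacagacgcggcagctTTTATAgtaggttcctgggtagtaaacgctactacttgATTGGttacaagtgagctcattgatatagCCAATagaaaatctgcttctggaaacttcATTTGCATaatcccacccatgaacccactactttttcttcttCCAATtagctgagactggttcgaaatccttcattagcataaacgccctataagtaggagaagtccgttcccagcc
Hist1h2ah/Hist1h2bk: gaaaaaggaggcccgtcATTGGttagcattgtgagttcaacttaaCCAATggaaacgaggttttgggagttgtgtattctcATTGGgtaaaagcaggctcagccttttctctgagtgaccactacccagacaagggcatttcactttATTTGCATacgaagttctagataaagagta
Hist1h2bf/Hist1h2ad: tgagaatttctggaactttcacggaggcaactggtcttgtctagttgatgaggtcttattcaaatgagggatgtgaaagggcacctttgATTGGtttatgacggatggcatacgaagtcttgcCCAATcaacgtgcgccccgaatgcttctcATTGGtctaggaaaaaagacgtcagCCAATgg
Hist1h2bq/Hist1h2ao: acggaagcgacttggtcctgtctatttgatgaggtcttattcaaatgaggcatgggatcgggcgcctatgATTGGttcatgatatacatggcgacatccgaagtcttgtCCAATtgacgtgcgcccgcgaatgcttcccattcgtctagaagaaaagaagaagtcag
Hist1h1e: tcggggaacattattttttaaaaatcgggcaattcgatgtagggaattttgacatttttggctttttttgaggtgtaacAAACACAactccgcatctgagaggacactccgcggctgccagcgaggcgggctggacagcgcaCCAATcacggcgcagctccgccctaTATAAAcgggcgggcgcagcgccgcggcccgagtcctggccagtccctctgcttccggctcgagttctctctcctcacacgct
Hist4h4: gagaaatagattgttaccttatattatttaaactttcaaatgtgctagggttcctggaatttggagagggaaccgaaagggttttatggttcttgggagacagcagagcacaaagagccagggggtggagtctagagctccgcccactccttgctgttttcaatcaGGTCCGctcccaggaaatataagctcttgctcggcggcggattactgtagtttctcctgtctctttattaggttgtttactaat

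The first interval, at *Hist1h2ac*/*Hist1h2bc* (chr13:23775818-23776067), held 1 TATA box, 3 CCAAT boxes and 1 octamer. The second, at *Hist1h2ah*/*Hist1h2bk* (chr13:22127513-22127689), held 3 CCAAT boxes and 1 octamer and had peaks in all lines. The third, at *Hist1h2bf*/*Hist1h2ad* (chr13:23666066-23666249), held 4 CCAAT boxes, no TATAAA and no octamer and had a peak in none. The fourth, at *Hist1h2bq*/*Hist1h2ao* (chr13:21902069-21902235), was 70.7% identical to the third over their alignment, held 2 CCAAT boxes and had a peak in Pax6-HIGH cells. Its sequence was identical, in reverse complement, to the interval of *Hist1h2ap*/*Hist1h2br*, so reads from the 2 intervals cannot be told apart. The *Hist1h1e* stretch (chr13:23714372-23714621, minus strand) held 1 H1 box, 1 CCAAT box and 1 TATA box, and the *Hist4h4* stretch (chr6:136752901-136753150, minus strand) held 1 HINFP core, which reads GGTCCG on that strand.

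The same elements were counted in the 300 bases around every start, 250 before it and 50 from it on. CCAAT was present in 59 of the 70 histone promoters (84.3%) against 37.8% of 22313 other coding promoters, and TATAAA in 38 (54.3%) against 13.3%. The octamer was present in 16 (22.9%) against 1.66%, the HINFP core in 15 (21.4%) against 9.73% and the H1 box in 10 (14.3%) against 6.40%. Windows of divergent genes overlap, so that 1 match can count for both genes of a pair, and no motif contains another. The elements followed the class of histone. The HINFP core was in 12 of 13 H4 promoters and the H1 box in 5 of 6 H1 promoters, and the octamer was in 9 of 19 H2B and 7 of 20 H2A promoters but in no H1, H3 or H4 promoter. CCAAT was in all 19 H2B, 19 of 20 H2A, 11 of 12 H3 and all 6 H1 promoters but in 4 of 13 H4 promoters. The histone promoters were poorer in G and C, with a median of 46.0% against 55.3%.

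Promoters with and without a peak both held these elements. Of the 55 promoters with a Pax6-HIGH peak, 48 held CCAAT and 27 held TATAAA, while of the 15 without, 11 held each. For Pax6-OFF cells the octamer was in 10 of 32 promoters with a peak and in 6 of 38 without. A match in these windows is a description of the letters and says nothing of binding.

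Among the linker histone H1 genes, 3 of 6 had a peak in Pax6-HIGH, 1 in Pax6-OFF and 0 in Pax6-ON cells. *Hist1h1c* had a pileup of 119 in Pax6-HIGH (percentile 87.1) and 50 in Pax6-OFF cells (50.1), with summits 214 and 929 bp inside the gene. *Hist1h1e* had 125 (88.4) and *Hist1h1d* 42 (31.6), both in Pax6-HIGH cells alone. The *Hist1h1e* peak was 1415 bp long and began 99 bp from the start of the H2B gene *Hist1h2be*, which counted as called through it. That gene is annotated over chr13:23675611-23712993, so its annotated start lies beside *Hist1h1e* and far from its annotated end. The other H1 genes, *Hist1h1a*, *Hist1h1b* and the testis gene *Hist1h1t*, had no peak in any line, with the nearest Pax6-HIGH peak 1144, 2011 and 1947 bp away.

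The H3 genes had peaks at 10 of 12 in Pax6-HIGH cells, 2 in Pax6-ON cells and 7 in Pax6-OFF cells. *Hist1h3e* had a pileup of 120 in Pax6-HIGH cells and 45 in Pax6-OFF cells, and its Pax6-HIGH fold enrichment of 7.80 was the highest of the histone peaks in that line. *Hist1h3g* had 116 and 42 and *Hist1h3b* 48 and 41. *Hist1h3f* had 61 (percentile 57.9, chr13:23636164-23636780) and 40 (28.3, chr13:23636136-23636590) in overlapping peaks inside the gene. A higher Pax6-HIGH peak of 77 lay exactly 500 bp away on the other side of its start, at *Hist1h2bh*. These genes stood higher in the ranking of Pax6-HIGH cells than in that of Pax6-OFF cells, at percentiles of 87.4 against 40.1 for *Hist1h3e* and 86.3 against 33.1 for *Hist1h3g*. *Hist1h3c* (74) and *Hist1h3i* (63) had a peak in Pax6-HIGH cells alone, and *Hist1h3h* and *Hist1h3d* had none. *Hist2h3b* also counted as called in Pax6-HIGH cells alone, but through a peak of 82 that it shared with the H2B gene *Hist2h2bb*. The summit of that peak lay 977 bp past the start of *Hist2h3b* and at −90 bp from the start of *Hist2h2bb*. At *Hist2h2bb* Pax6-OFF cells had a peak of 41.

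The H4 genes had peaks at 10 of 13 in Pax6-HIGH cells, 1 in Pax6-ON cells and 8 in Pax6-OFF cells, and among them was the highest histone peak of the data. *Hist4h4*, which stands alone outside the clusters, had a pileup of 208 in Pax6-HIGH cells, 92 in Pax6-ON cells and 72 in Pax6-OFF cells, at percentiles of 96.9, 79.4 and 76.1. It was the best ranked histone gene in Pax6-HIGH and Pax6-ON cells, and the only one above the 20th percentile in Pax6-ON cells. Relative to the median of the coding genes called in all lines, its pileup was 1.70, 1.37 and 0.973. At peaks shared by all lines, chromosome 6 as a whole had 2.05 times the Pax6-HIGH to Pax6-OFF ratio and 1.88 times the Pax6-HIGH to Pax6-ON ratio of the other autosomes, and the part of this in the *Hist4h4* values was not tested.

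*Hist1h4h* had 129 in Pax6-HIGH cells and 50 in Pax6-OFF cells, *Hist1h4f* 90 and 33, *Hist1h4b* 60 and 32, and *Hist2h4* 61 and 35, so each had the higher rank in Pax6-HIGH cells. *Hist1h4c* went the other way, with 72 (percentile 66.9) in Pax6-HIGH cells and 83 (83.2) in Pax6-OFF cells. At *Hist1h4a* and *Hist1h3a*, 1 peak reached both genes in each line, with 76 (69.5) in Pax6-HIGH cells and 99 (89.4) in Pax6-OFF cells, the best ranked histone peak of that line. The summits lay at different genes, however, at −4 bp from the start of *Hist1h3a* in Pax6-HIGH cells and 136 bp inside *Hist1h4a* in Pax6-OFF cells, so these values come from different sites. *Hist1h4d* (55), *Hist1h4j* (47) and *Hist1h4k* (53) had a peak in Pax6-HIGH cells alone. *Hist1h4i* was the reverse, with 51 (51.7) in Pax6-OFF cells and the nearest Pax6-HIGH peak 1122 bp away. *Hist1h4m* and *Hist1h4n* had no peak, but only 8.63% and 8.09% of the 75-base words within 500 bp of their starts occur once in the genome, so that reads there are hard to place.

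The H2A and H2B genes had peaks at 16 of 20 and 16 of 19 in Pax6-HIGH, at 2 and 2 in Pax6-ON, and at 8 and 8 in Pax6-OFF cells. Among those that do not stand in a divergent pair, the H2B gene *Hist1h2bb* had 77 (percentile 70.1) in Pax6-HIGH cells and 81 (82.2) in Pax6-OFF cells. Its summit was 130 bp inside the gene in Pax6-HIGH cells and at −369 bp, before the start, in Pax6-OFF cells. With *Hist1h4c* and *Hist1h4a*/*Hist1h3a* it was 1 of the 3 promoters ranked higher in Pax6-OFF cells, all at the far end of the main *Hist1* block, from *Hist1h4c* (chr13:23789929-23790323) to *Hist1h3a* (chr13:23853722-23854255). Other promoters in that stretch ranked higher in Pax6-HIGH cells, namely *Hist1h1c* (87.1 against 50.1), *Hist1h3b* (41.9 against 30.7) and *Hist1h4b* (56.9 against 9.05). *Hist2h2ab* had the lowest rank in both lines, with 36 (18.6) and 29 (3.42). *Hist1h2af* had 69 with a fold enrichment of 2.13, the lowest of the histone peaks in Pax6-HIGH cells, and *Hist1h2ab* had 41, both in that line alone. *Hist1h2aj*, *Hist1h2bm* and *Hist1h2al* had no peak.

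Over all distinct promoters called in both Pax6-HIGH and Pax6-OFF cells, 21 of 24 ranked higher in Pax6-HIGH cells, by a median of 38.1 percentile points (from −19.8 to 66.0). Scaled instead by the median pileup of the coding genes called in all lines, 16 of 24 were higher in Pax6-HIGH cells, with a median ratio of 1.23. A percentile also depends on how many peaks the line's list held, 28024 for Pax6-HIGH against 14022 for Pax6-OFF. Peaks at protein-coding genes likewise had the higher median percentile for Pax6-HIGH, at 70.8 against 59.3. How many other coding promoters called in both lines ranked higher was not computed. Whether the rank shift is particular to histone promoters was thus not tested. At 5 of the 24 the summits of the lines were more than 500 bp apart, among them *Hist1h4a*/*Hist1h3a*. At the other 19, 17 ranked higher in Pax6-HIGH cells and 12 were higher there when scaled, while *Hist1h4c* and *Hist1h2bb* ranked higher in Pax6-OFF cells. The percentiles of the 24 promoters in the 2 lines were weakly related (Pearson's r 0.448, Spearman's rho 0.379, a description across promoters of 1 library each, not replicates). At shared peaks, chromosome 13 had 0.776 times the Pax6-HIGH to Pax6-OFF ratio of the other autosomes and chromosomes 3 and 11 had 1.40 and 0.840 times that ratio, and the part of these levels in the cluster values was not tested. At genes where Pax6-OFF cells also had a peak, the Pax6-HIGH pileup had a median of 86.5 over 22 peaks (36 to 208). At genes where they had none it had a median of 56 over 17 peaks (41 to 125), so the groups overlapped. The peak of 82 shared by *Hist2h2bb* and *Hist2h3b* counted in both groups, and the peak of 61 at *Hist1h3f* in neither. All 5 promoters called in Pax6-ON cells ranked lower there than in Pax6-HIGH cells, but scaled by the coding median 3 of the 5 were higher in Pax6-HIGH cells and 2, *Hist1h2ah*/*Hist1h2bk* and *Hist1h2ak*/*Hist1h2bn*, were higher in Pax6-ON cells.

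Along chromosome 13, the first block of *Hist1* had peaks in Pax6-HIGH cells and none in Pax6-OFF cells. When a gap of more than 100 kb was taken to separate blocks, *Hist1* split into 5. Block 1 (chr13:21807632-21929399, from *Hist1h2bl* to *Hist1h2br*) had peaks at 13 of 19 genes in Pax6-HIGH cells, 2 in Pax6-ON cells and 0 in Pax6-OFF cells. Block 2 (chr13:22126982-22135545) had peaks at 4, 2 and 5 of 5 genes, and block 3 (chr13:23622919-23856283, from *Hist1h4h* to *Hist1h1a*) at 24, 0 and 17 of 29. Pax6-OFF cells thus had no histone peak in block 1 and peaks at most genes of blocks 2 and 3, whereas the Pax6-ON peaks of *Hist1* lay in blocks 1 and 2 only.

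The Pax6-HIGH peaks of block 1 were low. Their pileups ran from 46 to 69 with a median percentile of 52.5, against 41 to 129 and 70.1 in block 3, and with 9821 peaks per line block 1 kept a Pax6-HIGH peak at 1 of 19 genes, where block 3 kept 15 of 29. In Pax6-OFF cells block 3 kept 14. Block 1 is also more repetitive than block 3. The median share of 75-base words that occur once in the genome, within 500 bp of the start, was 65.2% in block 1, 60.0% in block 2 and 80.7% in block 3, and it was 0% at *Hist1h2ao*, *Hist1h2bq*, *Hist1h2ap* and *Hist1h2br*. How the authors treated reads with several equal placements is not given in the sources used here. In the promoter window the median share was 100% in every block, but some genes lay far below it. In block 1 the share was 0% at *Hist1h2ao*, *Hist1h2bq*, *Hist1h2ap* and *Hist1h2br* and 6.64% at *Hist1h4m* and *Hist1h4n*. In *Hist2* it was 30.5% at *Hist2h3c2*, 31.9% at *Hist2h2aa2* and *Hist2h2aa1*, and 33.2% at *Hist2h3c1*.

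*Hist2* (chr3:96023839-96082924) was the most complete cluster, with peaks at all 10 genes in Pax6-HIGH cells, 2 in Pax6-ON cells and 7 in Pax6-OFF cells. Its centre is an inverted duplication, with *Hist2h3c2* and *Hist2h2aa2* on the minus strand and *Hist2h2aa1* and *Hist2h3c1*, which are annotated to start almost together, on the plus strand. In Pax6-HIGH cells 1 peak of 2120 bp covered *Hist2h3c2* and *Hist2h2aa2* (pileup 113, percentile 85.5), the longest histone peak of that line, and 1 of 1757 bp covered *Hist2h2aa1* and *Hist2h3c1* (140, 91.1), the second highest. In Pax6-OFF cells *Hist2h2aa2* had 75 (78.2), *Hist2h3c2* 55 (57.9) and the peak at *Hist2h2aa1* and *Hist2h3c1* 45 (40.1). A further peak of 44 (37.8, chr3:96050401-96050897) lay inside *Hist2h3c1*, over a second annotated start of that gene at 96050674. The long Pax6-HIGH peaks had their summits at the start of *Hist2h2aa2* and at 96050584. The latter is 1107 bp from the first start of *Hist2h3c1* and close to its second. So at *Hist2h3c2*, at the start of *Hist2h2aa1* and at the first start of *Hist2h3c1* the Pax6-OFF values come from other positions. In Pax6-ON cells *Hist2h3c2* had 43 (16.2) and *Hist2h3c1* 35 (2.75), the lowest histone peak of that line, whose edge was 99 bp from the same second start. At or beside that start Pax6-HIGH, Pax6-ON and Pax6-OFF cells thus had peaks of 140, 35 and 44. Single-copy words made up 8.09% of the surroundings of the start at *Hist2h3c2*, 35.1% at *Hist2h2aa2*, 35.1% at *Hist2h2aa1* and 33.3% at *Hist2h3c1*, so how their reads were divided between the copies is uncertain. *Hist2h2bb* (82 and 41) and *Hist2h4* had peaks in Pax6-HIGH and Pax6-OFF cells, while the pair *Hist2h2ac*/*Hist2h2be* (57) had one in Pax6-HIGH cells alone. *Hist2h3b* was called in Pax6-HIGH cells alone, through the peak whose summit lay at *Hist2h2bb*. In *Hist3* (chr11:58762413-58770176), the pair *Hist3h2bb-ps*/*Hist3h2a* had 83 in Pax6-HIGH cells and 35 in Pax6-OFF cells, at percentiles of 73.7 and 16.0, and *Hist3h2ba* had 49 in Pax6-HIGH cells alone.

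**Figure D3:**
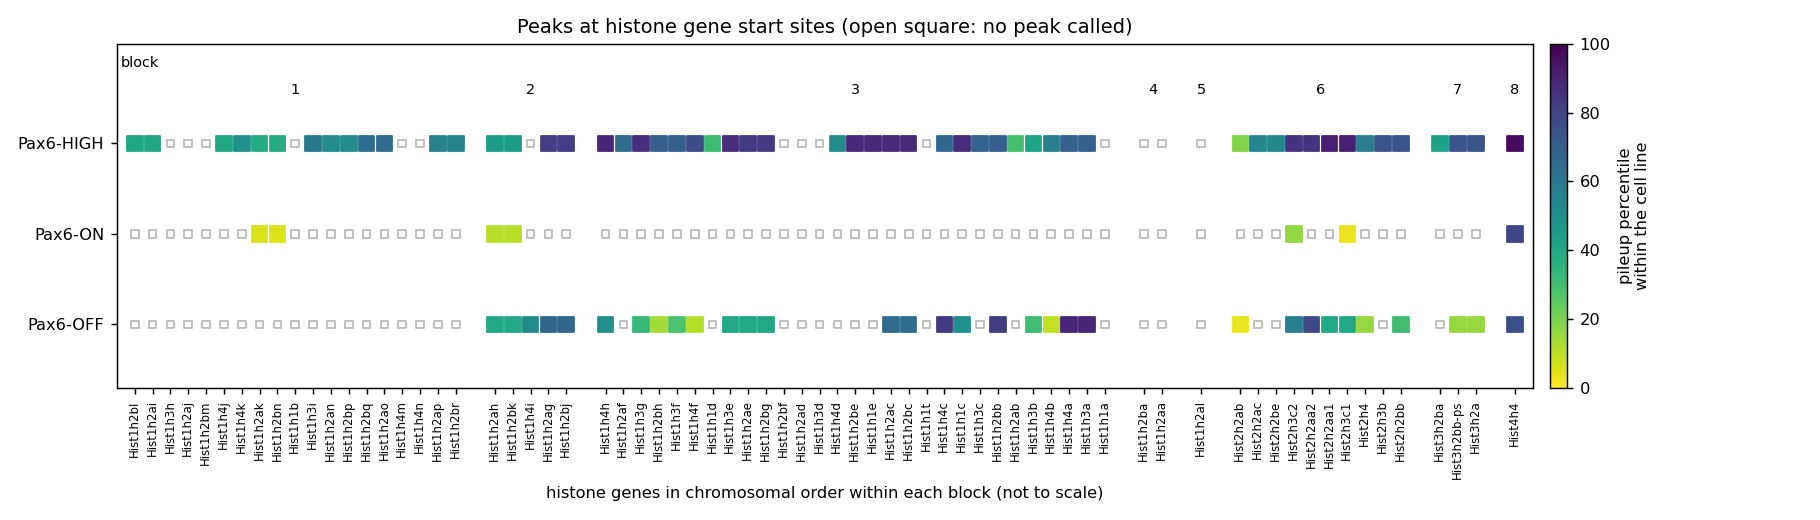
Histone genes in chromosomal order (horizontal axis, blocks 1 to 5 of Hist1 then Hist2, Hist3 and Hist4h4 as blocks 6 to 8, not to scale) against cell line, with a filled square where a peak lay within 500 bp of a start site, coloured by its percentile of pileup in that line, and an open square where none was called. Pax6-OFF has open squares at all 19 genes of block 1 and filled squares at 17 of 29 in block 3, and Pax6-ON has 7 filled squares in all.

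The share of divergent pairs with a peak was close to that of other coding pairs in Pax6-HIGH cells and lay under it in the other lines. There were 14 histone pairs with start sites less than 1000 bp apart (167 to 692 bp between them, median 227.5 bp). A peak lay at 12 pairs (85.7%) in Pax6-HIGH cells, 2 (14.3%) in Pax6-ON cells and 6 (42.9%) in Pax6-OFF cells. Among 777 other pairs of coding genes the shares were 86.6%, 44.7% and 80.4%. With 9821 peaks per line, 5 histone pairs were called in Pax6-HIGH cells, 2 in Pax6-ON cells and 5 in Pax6-OFF cells, so Pax6-HIGH and Pax6-OFF cells no longer differed in this count. The share of the other coding pairs was not computed under that rule, so whether the fall is particular to histone pairs was not tested.

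The pairs differed widely in rank. *Hist1h2ac*/*Hist1h2bc* had a pileup of 123 (percentile 88.0) in Pax6-HIGH cells and 60 (64.6) in Pax6-OFF cells, *Hist1h2ag*/*Hist1h2bj* had 102 (82.0) and 62 (67.0), and *Hist1h2ae*/*Hist1h2bg* had 105 (83.0) and 45 (40.1). *Hist1h2bh*/*Hist1h3f*, the pair with the widest interval, had a peak at each end in both lines, of 77 (70.1) and 61 (57.9) in Pax6-HIGH cells and of 34 (13.6) and 40 (28.3) in Pax6-OFF cells. At the low end, *Hist1h2ah*/*Hist1h2bk* had 50 (44.8), 40 (10.6) and 45 (40.1) in Pax6-HIGH, Pax6-ON and Pax6-OFF cells. It was called in every line without being high in any. *Hist1h2ak*/*Hist1h2bn* had 46 (38.6) in Pax6-HIGH cells and 37 (5.54) in Pax6-ON cells, and *Hist1h2bl*/*Hist1h2ai* had 47 (40.3) in Pax6-HIGH cells alone. The remaining pairs of block 1 had 56 (*Hist1h2an*/*Hist1h2bp*), 69 (*Hist1h2bq*/*Hist1h2ao*) and 59 (*Hist1h2ap*/*Hist1h2br*), the last 2 with the identical promoter. No line had a peak at *Hist1h2bf*/*Hist1h2ad*, whose nearest peak in Pax6-HIGH cells was 2177 bp from the first gene, or at the testis pair *Hist1h2ba*/*Hist1h2aa*, where it was 19561 bp away.

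Summits did not always lie between the paired starts. In Pax6-HIGH cells the summit lay between them at 5 of 12 pairs, in Pax6-ON cells at 2 of 2 and in Pax6-OFF cells at 3 of the 5 pairs with 1 peak over both. Over all histone genes with a peak, the median summit was 43 bp inside the gene in Pax6-HIGH cells (quartiles −140 and 186 bp), at −57 bp, before the start, in Pax6-ON cells and at −2.5 bp in Pax6-OFF cells. At other coding genes the medians were −31, −51 and −32 bp. At *Hist4h4* the summit lay 291, 288 and 255 bp inside the gene in Pax6-HIGH, Pax6-ON and Pax6-OFF cells. Peaks were called on whole fragments with no shift to the Tn5 cut sites, and 8 of the 66 histone genes with an annotated start codon have their start site at that codon, so these distances depend on the annotation.

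**Figure D4:**
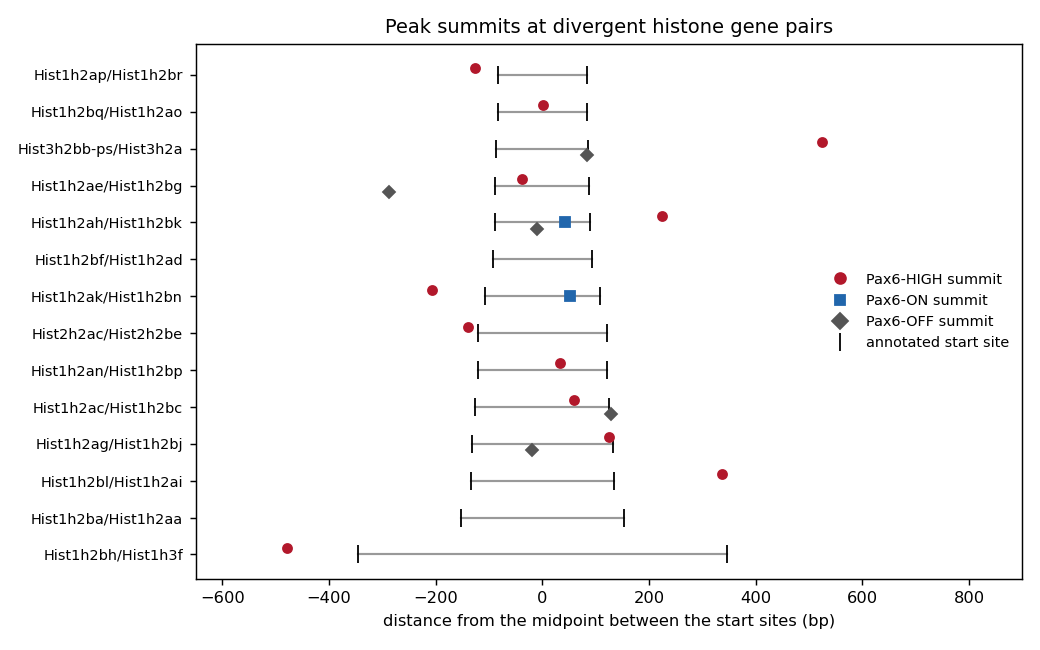
Position of the peak summit (horizontal axis, bp from the midpoint between the paired start sites) at the 14 divergent histone pairs in each cell line where 1 peak lay within 500 bp of both starts; black ticks joined by a grey line mark the start sites. Summits lie between the ticks at 5 of 12 pairs in Pax6-HIGH, and Hist1h2bf/Hist1h2ad and Hist1h2ba/Hist1h2aa have none.

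Genes without a peak in Pax6-HIGH cells mostly lay near one. The nearest Pax6-HIGH peak was at a median of 2177 bp from the 15 histone genes that lacked one (827 to 101540 bp). In Pax6-OFF cells the median was 17001 bp over 38 genes, and in Pax6-ON cells 173958 bp over 63. The distances lengthen as the lines have fewer peaks. *Hist1h2al*, which lies alone at chr13:51298057-51298434, was farthest in Pax6-HIGH cells. *Hist1h1t*, *Hist1h2ba* and *Hist1h2aa*, which are used in the male germ line, had no peak in any line.

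Outside the clusters, the genes that serve histone supply were mostly called. Of 20 factors that drive or process histone transcripts, all 20 were called in Pax6-HIGH cells, 13 in Pax6-ON cells and 19 in Pax6-OFF cells, read against 45.4%, 21.0% and 35.4% of protein-coding genes. *Npat*, the coactivator of the clusters, had pileups of 125, 112 and 126 in Pax6-HIGH, Pax6-ON and Pax6-OFF cells. *Casp8ap2* (FLASH), needed to process the 3′ end, had 206, 68 and 69, and *Slbp*, which binds the stem-loop, had 108, 38 and 80. *Nfya*, a subunit of NF-Y, had 274, 148 and 196 (percentiles 98.7, 94.1 and 98.6), whereas *Hinfp* had 53 and 60 in Pax6-HIGH and Pax6-OFF cells and no peak in Pax6-ON cells.

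Of 13 replication-independent histone genes found in the annotation, which supply variants outside S phase or in other tissues, 10 (76.9%) were called in Pax6-HIGH cells, 4 (30.8%) in Pax6-ON cells and 7 (53.8%) in Pax6-OFF cells. *H2afz*, which encodes H2A.Z, had 257, 99 and 73, and *H3f3b*, one of the genes for H3.3, had 50, 51 and 67. The 6 histone chaperone genes had peaks at 6, 3 and 6, with *Asf1a* at 243, 97 and 99. In Pax6-ON cells the 4 variant genes (of 13) and 13 factor genes (of 20) with peaks stood beside 7 of 70 replication-dependent genes, all 3 read against the background of 21.0%.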

How the data were processed

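Per the submitters' processing notes, the authors trimmed reads with Trim Galore 0.4.1, aligned them to mm9 with Bowtie2 2.2.6 and used SAMtools 1.6, bedtools and MACS2 2.1.1. Per the file headers, both replicates of a line entered 1 call with no control, on whole fragments, keeping all duplicates present, with local background over 6250 bp and a q-value cut of 0.05. Whether duplicates had been removed is not given in the sources used here. The deposited pileup is a signal in fragments, not scaled for depth. Fold enrichment, as deposited, is pileup over local background, as a ratio with 1 added to both. The deposited q-values are −log10 values; p-values were not used. The deposited tables and narrowPeak files held identical peaks.

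Peaks were joined to NCBIM37 (the mm9 assembly) and its GENCODE M1 annotation with pandas 2.3.3 in Python 3.11.15, and scripts were tested on simulated data. Mitochondrial genes were left out of the background. Named were, in each line, the 5 histone genes with the highest and the 5 with the lowest percentile, all genes outside *Hist1*, those with peaks in no, 1 or 2 lines, the divergent pairs at either end of the ranking or without a peak, and fixed lists of factors, variants, chaperones and markers. The genes and lists were chosen with earlier results of these data known. Alternatives were other windows, q-value cuts, peak numbers, start sites, rankings and mappability limits. H3K27ac, CTCF, Capture-C and FISH data were not analysed here.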

Additional observations from a re-analysis of the deposited data

How the results depend on the processing

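No paired analysis was possible because both replicates of a line were pooled before peak calling, and for the same reason no replicate could be left out. Of 131 values recomputed under other settings, 118 stayed within 1.5 times the reported count or, for a median percentile, within its 95% order-statistic interval, and 13 did not. With 9821 peaks per line, Pax6-HIGH cells had a peak at 27 histone genes through 18 distinct peaks, at 5 divergent pairs and at 6179 protein-coding genes, and 3 histone genes had one in all lines. When a peak had to overlap the start site, 4 histone genes had a peak in Pax6-ON cells and 3 in all lines. Among the 17 genes with at least 90% single-copy words around the start, 13 had a peak in Pax6-HIGH, 1 in Pax6-ON, 8 in Pax6-OFF cells and 1 in all lines. These last counts are lower because fewer genes were tested. Ranked among peaks at coding genes alone, the Pax6-HIGH histone peaks had a median percentile of 42.3. Limiting the genes to the 59 with single-copy promoters, a setting chosen after seeing the data, left 3 called in all lines. Limiting them to the 67 protein-coding genes, also chosen after seeing the data, gave 53, 6 and 30 genes. Comparing ranks only where the summits of Pax6-HIGH and Pax6-OFF cells lay within 500 bp of each other, also chosen after seeing the data, left 17 of 19 promoters higher in Pax6-HIGH cells. In every setting run, Pax6-HIGH had the most histone genes with a peak and Pax6-ON the fewest. The lowest called pileups of 25 to 30 fragments limit what could be detected.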

Other observations

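Inside the clusters, 8 peaks lay more than 500 bp from every histone start site and from every coding start site. In block 3 of *Hist1*, Pax6-HIGH cells had a peak at chr13:23677168-23677978 with a pileup of 78 (percentile 70.8), whose summit was 4221 bp from the start of *Hist1h4d* and which lies inside the annotated span of *Hist1h2be*, near its far end. Its percentile was above the median of 70.1 over the called histone genes of the block. Pax6-OFF cells had 2 such peaks in the block, at chr13:23648053-23648377 (29 fragments, 1464 bp from *Hist1h1d*) and chr13:23793026-23793244 (32 fragments, 2769 bp from *Hist1h4c*). Pax6-ON cells had 1 in block 1, at chr13:21856379-21856740, with 46 fragments (percentile 22.2), which was higher than their peak at *Hist1h2ak*/*Hist1h2bn* in the same block.

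At *Hist2*, Pax6-HIGH and Pax6-OFF cells each had 2 such peaks inside the annotated span of *Hist2h2bb* (chr3:96073644-96082924), the last gene of the cluster by start site. The nearer one had 63 fragments in Pax6-HIGH (chr3:96074757-96076502, 2230 bp from its start) and 28 in Pax6-OFF cells (chr3:96075459-96075933, 2255 bp). The farther one had 32 (chr3:96082029-96082409) and 44 fragments (chr3:96081983-96082228), at percentiles of 9.66 and 37.8. The order of the lines by percentile was thus the reverse at this site of that at the genes of the cluster, with no replicate error to set the difference against.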
